A study of Mus musculus with 4 samples.

Results

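Ahnak, Ahnak2, Plec, Macf1, Dst, Utrn, Flna, Syne1 and Syne2 encode very large scaffold and linker proteins, and these 9 genes were described among the 30694 genes of the translation efficiency table. Ahnak was selected on its lower translation efficiency after Gm26917 knockdown in an earlier look at these data, and the other 8 genes were named with it because their products are of the same giant scaffold kind. Ahnak's own values are therefore given as a description without a test. The other 8 genes, too, were named with earlier results of these data known, so counts over the set are not independent support.

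Giant scaffolds work by holding many binding partners on a long, repetitive protein. AHNAK sits under the plasma membrane with the annexin and S100A10 complex, plakins such as plectin tie intermediate filaments, microtubules and actin to each other, utrophin and filamin A couple cortical actin to membrane receptors, and nesprins reach from the nuclear envelope to the cytoskeleton. Because the coding sequence is so long, a ribosome needs far more time to finish such a protein than an average protein, and a footprint library samples each mRNA at many codons.

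Ribosome footprints were sequenced from cultured mouse female germline stem cells (FGSCs), which are grown out of the ovary, after cycloheximide had been used to hold ribosomes in place. Cells infected with lentivirus carrying a control hairpin (shNC, 2 libraries) were compared with cells carrying a hairpin against the long noncoding RNA Gm26917 (shGm26917, 2 libraries), and all infected cells went through antibiotic selection. The comparison addressed which mRNAs were translated more or less efficiently once Gm26917 was depleted. Translation efficiency (TE) is the authors' ratio of normalized footprints to normalized RNA-seq for a gene, so a lower TE can come from fewer footprints or from more RNA, which cannot be told apart from the ratio.

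The libraries differed in depth, and few germline markers of the label had a TE. Recovered footprint reads in open reading frames (ORFs) were 1618481 and 1049143 in the shNC libraries but 157914 and 1753036 in the shGm26917 libraries. These sums also depend on how many ORFs were listed above 0, which was 372 in shGm26917 replicate 1 and 3421 to 4250 elsewhere. Over the 296 ORFs above 0 in every library, this replicate had 147004 reads, against 312289 to 519338. That count was still the lowest. The TE changes of the scaffold genes, the length classes and the Ahnak ORF change were therefore also computed without this replicate. A TE above 0 was listed for 10687 genes in that library and for 13739 to 14720 genes in the others. Of 8 germline markers only Ifitm3 and Kit had a TE above 0 in every library, and Ddx4 and Pou5f1 had none above 0 in any, which as a ratio does not show that their RNA or protein was absent. All 7 fibroblast or theca markers and 4 of 6 macrophage markers had a TE above 0 in every library. The summed ORF value of the 6 fibroblast or theca markers with an ORF was 4126 and 4437 in shNC and 677 and 3093 in shGm26917, and that of the macrophage markers was 1074 and 772 in shNC and 0 and 1436 in shGm26917. The germline sum, from Ifitm3 alone, was 1111 and 797 in shNC and 0 and 799 in shGm26917, so all 3 sums were lowest in the shallow library. The sums of 0 come from genes (Ifitm3, Adgre1 and Ptprc) with a TE above 0 there, so they do not show an absence of footprints. The part of these cell types in the results was not tested. For Gm26917 itself the table gave TE values of 17.0, 23.8, 113 and 8.62 in shNC 1, shNC 2, shGm26917 1 and shGm26917 2, which as ratios give no RNA level and so do not check the knockdown.

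All 8 scaffold genes that could be compared had a mean TE that was lower after knockdown than in the controls, against 50.0% of all genes tested. Their median change was -0.34 on the log2 scale, against 0.00095 over all 10115 genes with a ratio above 0 in every library. In 6 of the 8 genes both shGm26917 libraries lay below both shNC libraries, a pattern found in 14.8% of all genes tested, and none of the 8 showed the opposite pattern, found in 16.1%. Without Ahnak, the gene selected on this contrast, the count was 5 of 7 and the median change -0.32. Both counts include Flna, whose groups were almost tied. Since the members were named with earlier results of these data known, these counts describe the set. No single change passed the test. With limma, 0% of all genes had an adjusted p under 0.05, 237 genes had an unadjusted p under 0.05, and the smallest adjusted p was 0.966. The looser limit used in the study asks for a 1.5-fold difference and an unadjusted p up to 0.05. Applied to the limma p-values here, which are not the study's own calls, it took 89 genes (0.88%) as lower and 148 as higher. Among them were 0 scaffold genes. Since lysates of whole cultures were measured, a change in the mix of cells cannot be told apart from a change within each cell.

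Ahnak (chr19:8989284-9076914, plus strand, mm10) encodes the membrane-associated scaffold that anchors the set. Its TE was 1.04 and 0.962 in the shNC libraries and 0.633 and 0.636 in the shGm26917 libraries. Both knockdown libraries were low and nearly equal, and the groups did not overlap. The means were 1.00 ± 0.0552 and 0.634 ± 0.00189 (SD, n = 2 each), so that the knockdown mean was 63.4% of the control mean, a log2 change of -0.66 ± 0.31 (SE). Among all genes tested, this change lay at percentile 11.2, so that larger decreases were common. In the ranking of genes within each library Ahnak moved from percentiles 53.6 and 48.5 in shNC to 31.2 and 33.7 in shGm26917. Its shGm26917 libraries differed by 0.0061 on the log2 scale, and 0.583% of genes differed less. Close values in these libraries were shared by Flna, Syne2, Macf1 and Dst, which differed by 0.034 to 0.077, against a median of 0.65 over all genes tested and 0.33 over genes of at least 3000 codons. The shNC libraries of Ahnak differed by 0.11, and 23.0% of genes differed less.

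Ahnak2 (chr12:112772194-112802657, minus strand), the second member of the AHNAK family, had TE values of 0.788 and 1.24 in the controls. It was listed at 0 in shGm26917 replicate 1, the shallow library, and at 0.262 in shGm26917 replicate 2. Both knockdown libraries were thus below both control libraries, but with a 0 the gene did not enter the test and no fold change is given. Of the 9 scaffold genes it had the lowest TE in both shGm26917 libraries, whereas in shNC its mean of 1.01 ± 0.317 (SD, n = 2) was close to that of Ahnak.

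**Figure D1:**
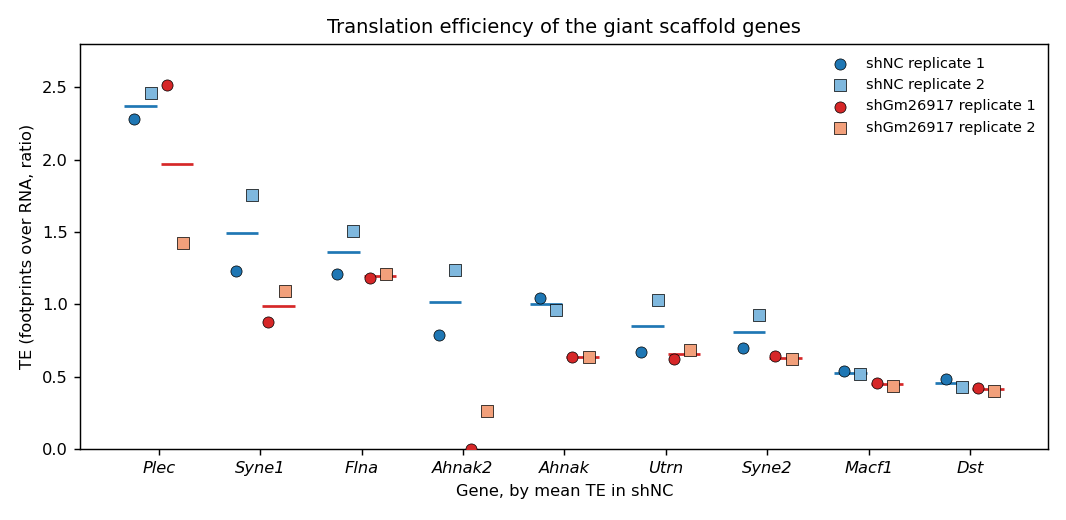
TE (ratio of footprints to RNA, vertical axis) of the 9 giant scaffold genes in each of the 4 libraries, with genes ordered by their shNC mean and horizontal lines at the mean of 2 libraries (none for Ahnak2 in shGm26917, which was listed at 0 in replicate 1). The shGm26917 points lie below the shNC points in all genes except Plec, where replicate 1 reaches 2.52, and Utrn, where replicate 2 at 0.686 exceeds shNC replicate 1 at 0.671.

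The plakins, which crosslink the cytoskeleton, held both the highest and the lowest mean TE of the set in shNC. Plec (chr15:76170974-76232574, minus strand), encoding plectin, which joins intermediate filaments to adhesion sites, gave TE values of 2.28 and 2.46 in the shNC libraries and 2.52 and 1.42 in the shGm26917 libraries. The knockdown libraries lay on either side of the controls, and the log2 change of -0.32 ± 0.41 (SE, limma adjusted p = 0.966) rested on replicate 2. Without that library the value was 0.086, and without shGm26917 replicate 1 it was -0.74.

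Macf1 (chr4:123349633-123684360, minus strand), encoding a spectraplakin that links microtubules to actin, had TE values of 0.536 and 0.519 in the controls and 0.458 and 0.436 after knockdown. The groups were tight and did not overlap, with a log2 change of -0.24 ± 0.31 (SE, limma adjusted p = 0.966). Dst (chr1:33908225-34308661, plus strand), encoding dystonin, the closest relative of Macf1, had TE values of 0.485 and 0.431 in the controls and 0.423 and 0.401 after knockdown. Here, too, both knockdown libraries were lower, but the gap was small and the log2 change was -0.15 ± 0.31 (SE, limma adjusted p = 0.969), nearest to 0 among the 8 genes.

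The linkers between the actin cortex and the membrane gave less separated values. Utrn (chr10:12382188-12869365, minus strand), encoding utrophin, which binds the dystroglycan complex, had TE values of 0.671 and 1.03 in the controls and 0.623 and 0.686 after knockdown. Only shNC replicate 2 was high, the groups overlapped, and the log2 change was -0.35 ± 0.37 (SE, limma adjusted p = 0.966). Flna (chrX:74223461-74249820, minus strand), encoding filamin A, which crosslinks actin and binds integrins, had TE values of 1.2104 and 1.51 in the controls and 1.18 and 1.2103 after knockdown. All libraries but shNC replicate 2 were almost level. The absence of overlap hung on 1.21037 in shNC replicate 1 against 1.21032 in shGm26917 replicate 2, which is in effect a tie. The log2 change was -0.18 ± 0.32 (SE, limma adjusted p = 0.966).

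The nesprins belong to the LINC complex across the nuclear envelope, and among the 8 genes tested over 4 libraries Syne1 came next to Ahnak in the size of its change. Syne1 (chr10:5020917-5551482, minus strand), encoding nesprin-1, had TE values of 1.23 and 1.76 in the controls and 0.879 and 1.09 after knockdown. The groups did not overlap although each was spread, and the log2 change was -0.59 ± 0.36 (SE, limma adjusted p = 0.966), at percentile 13.3 of all genes. Syne2 (chr12:75818134-76110926, plus strand), encoding nesprin-2, had TE values of 0.697 and 0.922 in the controls and 0.641 and 0.619 after knockdown. The knockdown libraries were again close to each other and lower, with a log2 change of -0.35 ± 0.33 (SE, limma adjusted p = 0.966).

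Library by library, the lower values did not come from a single pair, although the pairs share libraries and are not independent. Ahnak, which was selected on this contrast, is in these counts and was lower in every pair. Of the 9 genes, 8 were lower in shGm26917 replicate 1 than in either shNC library (all but Plec). In shGm26917 replicate 2, 8 were lower than in shNC replicate 1 (all but Utrn) and 9 were lower than in shNC replicate 2. Of all genes tested, 49.6% and 49.8% were lower in shGm26917 replicate 1 than in shNC replicates 1 and 2. For shGm26917 replicate 2 the shares were 47.9% and 49.0%. The size did depend on the control. Against shNC replicate 2 the median log2 ratio of the 8 tested genes was -0.44 and -0.58 for shGm26917 replicates 1 and 2, and against shNC replicate 1 it was -0.16 and -0.22, while the median of all genes stayed between 0.0045 and 0.019. With 1 library left out at a time the median change of the 8 genes ran from -0.47 without shNC replicate 1 to -0.25 without shNC replicate 2. Without the shallow shGm26917 replicate 1 it was -0.32, with 8 of 8 lower and 7 without overlap. Of all genes, 47.4% were then lower and 32.9% were lower without overlap.

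Single genes moved more than this median. Without shNC replicate 2 the log2 change was -0.33 in Syne1, -0.15 in Syne2, -0.04 in Utrn and -0.02 in Flna, and without shNC replicate 1 it was -0.84, -0.55, -0.65 and -0.33. Dst came to -0.06 without shNC replicate 1. Syne1 had a larger change than Ahnak without shNC replicate 1 and without shGm26917 replicate 2, where it was -0.74 against -0.66.

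**Figure D2:**
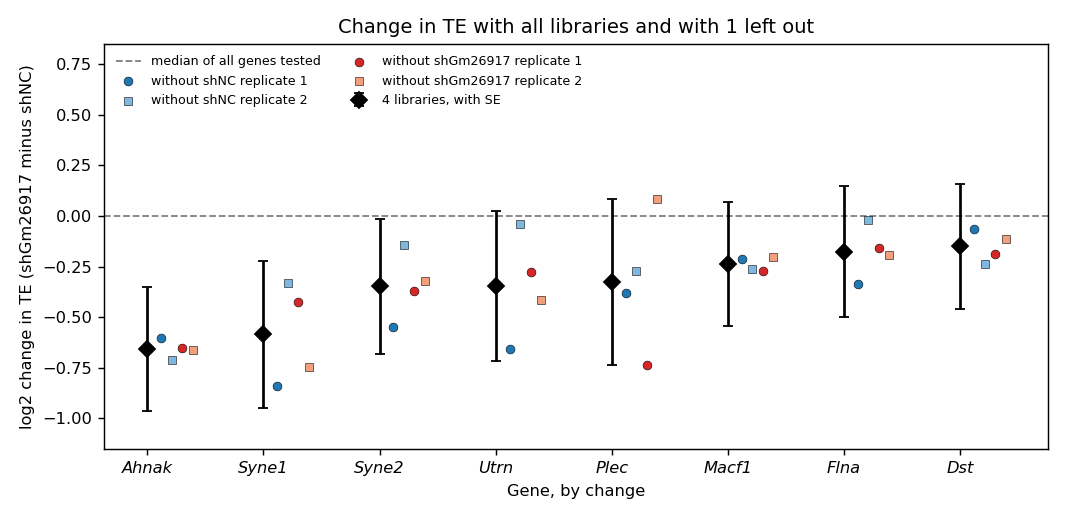
Log2 change in TE (shGm26917 minus shNC) of the 8 scaffold genes tested, as the fit over 4 libraries with its SE (black) and with 1 library left out (coloured), the dashed line marking the median of all genes. Ahnak moved little, between -0.71 and -0.60, whereas Plec ranged from -0.74 to 0.086 and Utrn came to -0.04 without shNC replicate 2.

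The order of the genes by TE was largely kept. In shNC the means ran from Plec through Syne1, Flna, Ahnak2, Ahnak, Utrn, Syne2 and Macf1 to Dst, but most neighbours overlapped, and only Plec and Syne1, Syne2 and Macf1, and Macf1 and Dst were separated in both libraries. In shGm26917 the order was Plec, Flna, Syne1, Utrn, Ahnak, Syne2, Macf1, Dst and Ahnak2, and the neighbours that overlapped were Utrn with Ahnak and Ahnak with Syne2. Plec was highest in every library, and Macf1 and Dst had the lowest TE of the genes above 0 in all 4 libraries.

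Genes with a TE profile most like that of Ahnak came from outside the scaffold class. Likeness was the root mean square difference in log2 TE over the 4 libraries after centring each gene on its own mean, among 9535 protein coding genes. Only 7 other scaffold genes could be ranked, so nearest genes from outside the class were likely in advance. The values compared are also those on which Ahnak was selected. The 5 nearest were Scai at 0.0146, Pi4kb at 0.0265, Socs2 at 0.0318, Phf19 at 0.0325 and Tcirg1 at 0.0468. Scai, a repressor of serum response factor signalling, had TE values of 0.484 and 0.457 in the controls and 0.303 and 0.302 after knockdown. By the rule that picked it, this repeats the flat controls and level knockdowns of Ahnak, at a lower TE. Of the scaffold genes Macf1 was nearest to Ahnak, at 0.213 and rank 409, and Plec farthest, at 0.346 and rank 2122.

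Partners and relatives of the scaffolds were followed in lists of genes, none of which had a gene past the adjusted threshold. Over all genes tested, 50.0% had a lower mean, and without overlap 14.8% were lower and 16.1% higher. Among partners of AHNAK and membrane repair genes, 7 of 9 tested (77.8%) had a lower mean. Without overlap, 4 were lower (44.4%) and 1 higher (11.1%), and the median change was -0.074. S100a10, which binds AHNAK with annexin A2, had TE values of 1.65 and 1.9975 in the controls and 1.32 and 1.40 after knockdown (log2 change -0.42, limma adjusted p = 0.966). Dysf, encoding the membrane repair protein dysferlin, had 1.89 and 1.74 against 1.19 and 1.28 (-0.55), and Anxa1 had 2.36 and 2.27 against 1.90 and 2.14 (-0.20). Capn1, encoding a calcium-activated protease, had the opposite order, with 2.06 and 2.33 against 2.73 and 2.63 (0.29).

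The spectrin repeat and plakin family is the one to which Plec, Macf1, Dst, Utrn and the nesprins are related. Of 8 tested genes, 5 (62.5%) had a lower mean. Without overlap, 4 were lower (50.0%) and 2 higher (25.0%), against 14.8% and 16.1% of all genes tested. The median change was -0.26. Sptbn1, encoding the widely expressed beta spectrin, had TE values of 0.901 and 0.991 in the controls and 0.547 and 0.670 after knockdown (log2 change -0.64), whereas Actn3, encoding a muscle alpha-actinin, had 1.79 and 4.12 against 15.8 and 5.03 (1.71). The filamins and actin adhesion linkers had 11 of 15 (73.3%) with a lower mean. Without overlap, 5 were lower (33.3%) and 1 higher (6.67%), and the median change was -0.13. Flnc, a paralogue of Flna, had 2.56 and 2.94 against 1.82 and 1.67 (-0.65), and Svil, encoding the actin and myosin binding protein supervillin, was the 1 gene of these lists at the study's threshold, with 1.70 and 1.48 against 0.454 and 0.868 (-1.34, limma adjusted p = 0.966).

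The dystrophin and utrophin complex had 6 of 7 tested genes (85.7%) with a lower mean. Without overlap, 2 were lower (28.6%) and 1 higher (14.3%), against 14.8% and 16.1% of all genes tested. The median change was -0.29. Dtnb, encoding beta-dystrobrevin, had TE values of 1.02 and 0.886 in the controls and 0.458 and 0.738 after knockdown, while Sgcb, encoding beta-sarcoglycan, had 0.792 and 0.817 against 1.18 and 0.944. The LINC complex and nuclear lamina, the small partners of the nesprins, were evenly divided, with 5 of 11 lower (45.5%). Without overlap, 2 were lower (18.2%) and 1 higher (9.09%), the lower share being near that of all genes tested. The median change was 0.059. Emd, encoding emerin, had 0.983 and 0.837 in shNC against 1.23 and 0.993 in shGm26917, and Sun2, whose product binds nesprins inside the nuclear envelope, had 1.67 and 1.93 against 1.81 and 1.20.

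Very large coding genes outside the scaffold class were set beside the scaffold genes, since both share a long coding sequence. Of 37 tested, 25 had a lower mean (67.6%, against 50.0% of all genes tested). Without overlap, 15 were lower (40.5%, against 14.8%) and 1 higher (2.70%, against 16.1%). The median change was -0.27, near the -0.32 of the scaffold genes without Ahnak. The 4 genes named next had the smallest unadjusted limma p of the list, so they do not stand for all 37. Fat1, encoding a giant cadherin, had TE values of 2.33 and 2.55 in the controls and 1.36 and 1.55 after knockdown, and Hspg2, encoding the basement membrane proteoglycan perlecan, had 2.36 and 2.55 against 1.56 and 1.55. Fbn1, encoding the microfibril protein fibrillin-1, had 2.73 and 4.48 against 0.439 and 2.20, and Rnf213, encoding a giant ubiquitin ligase, had 1.10 and 1.64 against 0.658 and 0.910. None passed the test (limma adjusted p = 0.966 for each of these 4).

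Across all 4114 genes with an annotated ORF and a TE in every library, the change shifted with coding length. Genes under 250 codons had a median log2 change of 0.0022, with 10.9% lower and 17.2% higher without overlap. The 458 genes from 1000 to 2000 codons had a median of -0.069, the 98 genes from 2000 to 3000 codons a median of -0.17, and the 38 genes of at least 3000 codons, which include 6 scaffold genes, a median of -0.24. Of those 38 genes, 17 (44.7%) were lower and 2 higher without overlap, and without the scaffold genes it was 13 of 32 (40.6%) with a median of -0.18. Over all 4114 genes the rank correlation of length with change was weak (Spearman rho = -0.070, across genes, which are not independent replicates).

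This shift rested in part on shNC replicate 2. Without it the longest class had a median of -0.10, and -0.04 with the scaffold genes left out, the class from 1000 to 2000 codons had 0.013, and rho was 0.053, in the opposite direction. Without each of the other libraries the longest class lay between -0.37 and -0.17. The levels show the same library, as the median TE of the longest class was 0.758 in shNC replicate 2 against 0.663 in shNC replicate 1 and 0.636 and 0.624 in shGm26917. Ahnak, Macf1 and Dst did not follow it, since their TE was lower in shNC replicate 2 than in shNC replicate 1.

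**Figure D3:**
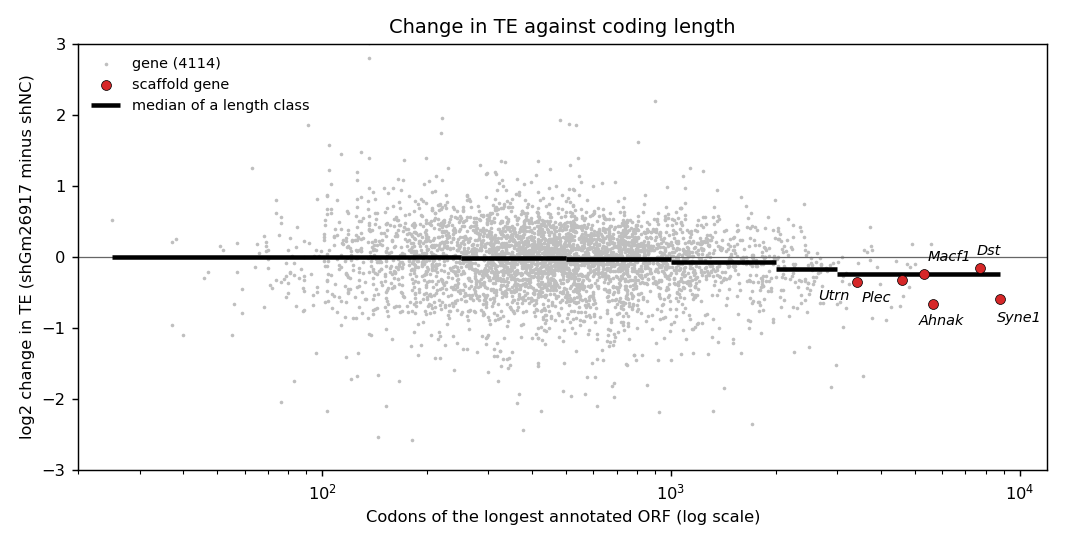
Log2 change in TE (shGm26917 minus shNC) against the codons of the longest annotated ORF (log axis) for 4114 genes, with the 6 scaffold genes that have an ORF in red and black bars at the median of each length class (5 genes lie beyond the limits of 3 on the vertical axis). The class medians go from 0.0022 in the shortest class to -0.24 in the longest, within a wide spread of single genes.

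The ORF table, called by the authors from the footprints, held 8 annotated ORFs from 6 scaffold genes and none listed for Ahnak2, Flna or Syne2. They were among the longest of the 4347 annotated ORFs, with 8799 codons in Syne1 (the longest), 7717 in Dst, 5656 in Ahnak, 5309 in Macf1, 4589, 4550 and 4543 in 3 ORFs of Plec, and 3430 in Utrn. Ahnak also differed in gene structure. Its ORF ran from 9000100 to 9018324 on chromosome 19 and 93.1% of that span was coding, whereas the share was 2.16% in Utrn, 5.08% in Syne1, 5.80% in Dst, 7.46% in Macf1 and 23.3% to 58.3% in Plec.

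Ahnak was the only scaffold gene with an ORF above 0 in all 4 libraries. Its ORF value, footprint reads divided by a size factor of the library, was 3781 and 3409 in shNC and 1787 and 2540 in shGm26917, from 4788, 2925, 795 and 3361 reads. Both knockdown libraries were lower, the shallow replicate 1 most, and the log2 change was -0.75 ± 0.25 (SE). This value comes from the same footprint libraries as the TE by which Ahnak was chosen, so it is a second description of that difference and has no test. Of the 296 ORFs above 0 in all 4 libraries, 17.6% were lower without overlap, the median change was -0.022, and 36 had a lower change than Ahnak.

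Seen as a share of the reads of those 296 ORFs, Ahnak took 1.04% (95% Clopper-Pearson interval 1.01% to 1.07%) and 0.937% (0.903% to 0.971%) in shNC, and 0.541% (0.504% to 0.580%) and 0.647% (0.626% to 0.669%) in shGm26917. The intervals cover counting error only, not the spread between libraries, and the shares are a description of a gene that was selected on these libraries. By value Ahnak stood at ranks 24 and 25 of 296 in shNC and at ranks 45 and 35 in shGm26917. Of the 296 ORFs, 4 others had at least 3000 codons, and they were divided. Dync1h1, encoding the dynein heavy chain, had values of 5765 and 6056 in shNC and of 3720 and 5586 in shGm26917, and Lrp1, encoding an endocytic receptor, had 2792 and 2846 against 1812 and 2029. Akap9, encoding an anchoring protein of the centrosome and Golgi, had 860 and 706 against 674 and 1193, and Lama5, encoding a laminin chain, had 1467 and 1246 against 1639 and 1821.

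**Figure D4:**
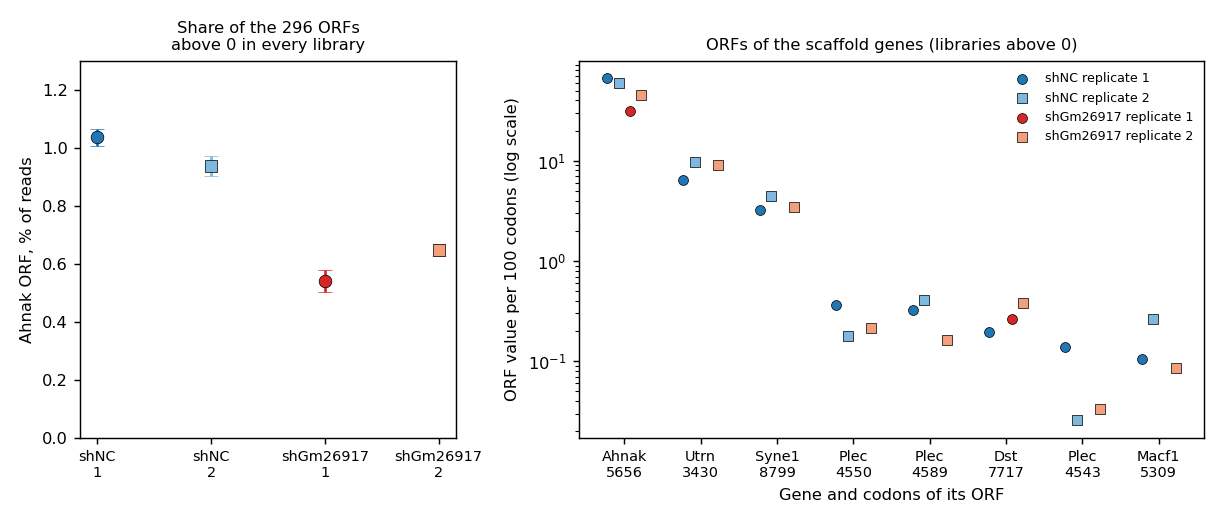
Left, the Ahnak ORF as a percent of the reads of 296 ORFs above 0 in every library, with 95% Clopper-Pearson intervals, and right, the ORF value per 100 codons (log axis) of the 8 scaffold ORFs in each library above 0, labelled by gene and codons. The Ahnak share was 1.04% and 0.937% in shNC and 0.541% and 0.647% in shGm26917. By listed value per codon Ahnak lay above every other scaffold ORF, where overlapping ORFs such as those of Plec could divide reads.

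Per codon, the listed ORF values of the scaffold genes spanned a wide range, which need not be a range of ribosomes per mRNA. Ahnak had values of 66.9 and 60.3 per 100 codons in shNC and of 31.6 and 44.9 in shGm26917. The median annotated ORF above 0 had 25.5, 32.2, 97.1 and 24.1 in shNC 1, shNC 2, shGm26917 1 and shGm26917 2, so Ahnak was above it in every library but the shallow one, in which only 353 annotated ORFs were above 0. Syne1 had ORF values of 287 and 394 in shNC, and Utrn had 221 and 336. In shGm26917 replicate 1 both stood at 0, and in replicate 2 they had 301 and 310, inside the range of the control libraries.

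The remaining scaffold ORFs rested on few reads. Dst was listed with 19, 0, 9 and 39 reads and Macf1 with 7, 12, 0 and 6 reads in shNC 1, shNC 2, shGm26917 1 and shGm26917 2. The 3 ORFs of Plec end at the same position and overlap, so reads could be divided among them. The highest value among them was 18.6, although Plec had the highest TE. Annotated ORFs that shared an end had a median value per 100 codons of 3.17 and 3.30 in shNC 1 and 2. The others had 26.0 and 32.7. It was 2.07 against 24.5 in shGm26917 replicate 2, and the reverse, from only 3 such ORFs, in shGm26917 replicate 1. What a 0 in the table stands for is not given in the sources used here, and no fold change is given for an ORF with a 0. In shGm26917 replicate 1, where their ORFs stood at 0, Syne1, Utrn, Plec and Macf1 had TE values of 0.879, 0.623, 2.52 and 0.458. Footprints were thus counted on these genes there, so these zeros do not show an absence of footprints. Over all 4669 ORFs limma found 0% at an adjusted p under 0.05, with 346 at an unadjusted p under 0.05 and a smallest adjusted p of 0.341. The study's threshold, applied to these limma p-values, took 7.2% as lower. The limma adjusted p was 0.836 for each scaffold ORF other than that of Ahnak. Each of these had a library at 0, which entered the fit as a value, so this p-value cannot decide whether they changed.

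The ORFs above 0 also differed between libraries. Of the 8 scaffold ORFs, 8, 7, 2 and 8 were above 0 in shNC 1, shNC 2, shGm26917 1 and shGm26917 2. Of the 41 annotated ORFs with at least 3000 codons the shares above 0 were 80.5%, 80.5%, 14.6% and 92.7%, against 90.4%, 74.0%, 8.12% and 91.1% of all annotated ORFs, and the long ORFs thus had the lower share in shNC replicate 1 and the higher share in the others. The share of 14.6% stands for 6 ORFs, and the difference was not tested. The scaffold ORFs other than that of Ahnak therefore had no comparison that used all 4 libraries above 0.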

How the data were processed

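Ribosome footprints were measured in 2 shNC and 2 shGm26917 libraries of mouse FGSCs, grouped by the sample labels. The authors deposited a gene table of TE, a ratio of normalized Ribo-seq over normalized RNA-seq, and a table of ORFs called with RiboCode, whose signal values are reads divided by a size factor. Coordinates are in mm10, the build named by the submitters' processing notes. For the aligner and the counter, names and versions were not given in the sources used here. Both tables also hold the authors' fold changes, p-values and classes of change, which were not used. ORF values were whole multiples of 1 read in 100% of cases (tolerance 0.01), 1 read being worth 0.790, 1.17, 2.25 and 0.756, so reads were recovered. PCR reads carry no molecular identifiers here, so intervals cover counting error only.

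TE was compared with limma 3.58.1 (R 4.3.3; lmFit, eBayes) on log2(TE) for genes above 0 in all 4 libraries. ORF values were compared on log2(value + 1), a scale that understates the change of low values, with a variance trend, for ORFs over 1 in at least 2 libraries. P-values were adjusted by Benjamini-Hochberg over the whole table. The paper describes the libraries as biological replicates, and p-values measure only the spread between these libraries. Alternatives were other centring, pseudocounts and filters, edgeR 4.0.16 and DESeq2 1.42.0 on recovered reads, a replicate block, and each library left out. The procedure was tested on simulated data.

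The members and lists were chosen with earlier results of these data known. All 9 members and their ORFs are named, with the 5 genes most like Ahnak in TE and, per list, up to 4 with the smallest unadjusted p. Dync1h1, Lrp1, Akap9 and Lama5 are all other ORFs of at least 3000 codons above 0 in all 4 libraries, added after values were seen. Coding length is the longest annotated ORF in codons, and the length classes below 3000 codons were set after the data were seen. No sequences are printed.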

Additional observations from a re-analysis of the deposited data

How the results depend on the processing

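Of 96 recomputed TE changes of the 8 scaffold genes, 95 kept their direction and 1 reversed, Plec without shGm26917 replicate 2 (0.086, range with 1 library left out -0.74 to 0.086). The filters on mean TE and on protein coding genes, the replicate block and the variance trend could not alter a log2 change. Ahnak, which was selected on this difference, is among the 8 genes. The count of 95 is thus partly fixed in advance. None of the 8 passed the adjusted threshold in the fit over 4 libraries, so their adjusted p-values say nothing about stability. The Ahnak ORF change stayed between -1.01 and -0.43. After quantile normalization 6 of 8 genes were still lower without overlap, against 14.8% of all genes tested. Dst and Utrn overlapped in place of Plec and Utrn, and the median was -0.30. The rank correlation of length with change, with libraries left out as an alternative added after seeing the data, ran from -0.17 to 0.053, the latter without shNC replicate 2.

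Over all genes, 0 were called for TE at the adjusted threshold and 0 to 255 with 1 library left out, 255 coming without shGm26917 replicate 2. The study's threshold gave 237 genes, 489 with a pseudocount of 0.1 and zeros kept, and 77 to 3376 with 1 library left out (117 and 77 without shNC 1 and 2, 583 and 3376 without shGm26917 1 and 2). For ORFs, DESeq2 called 3 at the adjusted threshold and limma 0, or 0 to 1982 with 1 library left out. The study's threshold gave 344 ORFs, 9 when only ORFs above 0 in all 4 libraries were tested, 53 after quantile normalization, 4 with edgeR, and 257 to 2152 with 1 library left out, 2152 coming without shGm26917 replicate 2. Why these counts moved was not tested.

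With a replicate block the counts were 0 genes and 0 ORFs at the adjusted threshold, and 274 and 244 at the study's threshold. Libraries of the same number did not deviate together (correlation -0.043 for TE and -0.086 for ORF values), so the numbers were not taken as pairs. Depth limits shGm26917 replicate 1 most.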
